A study of Mus musculus with 42 samples.

Results

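The proteasome and immunoproteasome genes were followed in bone-marrow-derived macrophages (BMDMs) under a fatty acid and a bacterial stimulus. Members were the rows of the count table whose Ensembl identifier is that of a protein-coding mouse gene with a symbol starting Psma, Psmb, Psmc, Psmd or Psme in GENCODE M21. The rule found 44 of the 37310 rows, and 43 of them passed the filter on low counts. The member left out by the filter was Psmb11, a catalytic subunit of the thymic cortex, which had 0 to 3 counts in every library. Of the interferon-inducible members, Psmb8, Psmb10, Psme1 and Psme2 were measured; Psmb9 is not analysed here. The other 40 members are called constitutive below when set against these 4, whatever their own regulation.

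RNA was sequenced from BMDMs of mice with a myeloid deletion of Irf5 (labelled KO) and of wild-type littermates (WT). In the study's methods, the deletion came from Irf5 flox/flox crossed with LysM-Cre, in which Lyz2 drives the recombinase, on a C57BL/6 background, and the mice were male and 7 to 10 weeks old. Marrow cells of all groups had grown for 8 to 10 days in medium conditioned by L929 cells, a source of macrophage growth factor. Each genotype was left untreated (Control) for 0, 2 or 24 h, or received palmitate, a saturated fatty acid, or LPS, lipopolysaccharide of the bacterial cell wall, for 2 or 24 h, which gave 14 groups of 3 libraries. No label says whether the 3 libraries of a group came from separate animals, so p-values measure only the spread between these libraries.

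Total counts ran from 2848793 to 7743442 per library, and the 2 shallowest were library 1 of KO LPS 2 h and library 1 of WT LPS 2 h. Irf5 did not follow the label: over the 7 conditions its level was 0.27 (log2, SE 0.02) higher in the libraries labelled KO, at 267 to 430 CPM (counts scaled to the TMM-adjusted library size) against 210 to 389 CPM in WT. A count over the whole gene also takes reads from exons outside a floxed stretch. Lyz2, which carries the Cre insertion, was lower in the libraries labelled KO by 0.84 (log2 difference -0.84, SE 0.04). The 6 macrophage markers together gave 4710 to 8747 CPM per library. Of the markers of other cells, the 3 fibroblast genes together gave 0 to 215 CPM, the 5 of granulocyte precursors 6.78 to 126 CPM, the 5 of T or NK cells 18.7 to 43.2 CPM and the 4 of dendritic cells 0.358 to 10.2 CPM. Of the 5 T or NK markers, only Cd4 passed the filter on low counts. Cd3d, Cd3e and Ncr1 had 0 counts in WT Control 0 h, where the T or NK sum reached 43.2 CPM. The 3 B cell markers gave at most 5.21 CPM and the 2 haemoglobin genes at most 0.369 CPM. In bulk RNA, a shift in the share of cells of a type and a shift in RNA per cell cannot be told apart.

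The proteasome degrades proteins tagged with ubiquitin. Its barrel, the 20S core, is built of alpha rings (Psma genes) around beta rings (Psmb genes), and only the beta subunits encoded by Psmb5, Psmb6 and Psmb7 cut peptide bonds. The 19S cap holds a ring of ATPases (Psmc genes) that unfold the substrate and a lid and base (Psmd genes) that bind and remove ubiquitin. Under interferon, new cores take up Psmb8 in place of Psmb5, Psmb10 in place of Psmb7 and Psmb9 in place of Psmb6. This immunoproteasome, together with the PA28 activator formed by Psme1 and Psme2, yields peptides suited to MHC class I molecules, which macrophages use to show fragments of their proteins to CD8+ T cells.

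Promoters of the inducible members were read beside those of constitutive members. RefSeq promoters (GRCm38.p6, 250 bases before to 50 after the start) were found for 37 members and are printed for the 4 inducible members and for Psmb5 and Psmb6, the 2 constitutive catalytic members whose window held a searched motif. Psme2 has 2 listed starts, of which the first is shown. Capitals mark a match on either strand, all other letters are lower case, and each run reads 5′ to 3′ along the gene.
Psmb8 (chr17:34197945-34198244, plus strand): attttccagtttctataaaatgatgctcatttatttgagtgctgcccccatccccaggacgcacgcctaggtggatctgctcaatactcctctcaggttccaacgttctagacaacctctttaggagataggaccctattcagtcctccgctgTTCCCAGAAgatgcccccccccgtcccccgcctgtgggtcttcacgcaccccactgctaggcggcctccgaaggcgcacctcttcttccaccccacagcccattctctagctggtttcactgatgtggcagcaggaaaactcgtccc
Psmb10 (chr8:105938343-105938642, minus strand): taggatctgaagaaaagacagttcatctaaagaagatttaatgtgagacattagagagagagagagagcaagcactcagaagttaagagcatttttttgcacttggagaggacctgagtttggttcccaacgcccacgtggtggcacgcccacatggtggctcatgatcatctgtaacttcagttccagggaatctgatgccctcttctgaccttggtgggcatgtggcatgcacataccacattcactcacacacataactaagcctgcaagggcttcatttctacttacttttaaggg
Psme1 (chr14:55578244-55578543, plus strand): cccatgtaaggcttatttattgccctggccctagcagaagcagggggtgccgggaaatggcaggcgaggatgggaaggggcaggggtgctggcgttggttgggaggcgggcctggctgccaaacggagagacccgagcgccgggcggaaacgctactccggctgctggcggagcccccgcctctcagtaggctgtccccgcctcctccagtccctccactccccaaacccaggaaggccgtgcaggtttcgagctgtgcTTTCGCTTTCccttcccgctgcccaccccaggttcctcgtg
Psme2 (chr14:55591052-55591351, minus strand): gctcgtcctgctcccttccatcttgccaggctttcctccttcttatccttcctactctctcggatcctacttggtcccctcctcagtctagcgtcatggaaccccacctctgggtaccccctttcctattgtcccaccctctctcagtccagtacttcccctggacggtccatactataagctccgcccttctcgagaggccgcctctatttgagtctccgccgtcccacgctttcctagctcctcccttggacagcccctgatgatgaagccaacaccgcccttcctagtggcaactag
Psmb5 (chr14:54617946-54618245, minus strand): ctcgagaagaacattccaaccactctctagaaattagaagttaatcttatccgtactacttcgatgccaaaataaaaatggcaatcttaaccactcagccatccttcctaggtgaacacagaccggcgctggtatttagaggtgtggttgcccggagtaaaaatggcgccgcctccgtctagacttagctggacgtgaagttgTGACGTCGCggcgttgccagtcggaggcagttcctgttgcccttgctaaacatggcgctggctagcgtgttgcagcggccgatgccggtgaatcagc
Psmb6 (chr11:70525107-70525406, plus strand): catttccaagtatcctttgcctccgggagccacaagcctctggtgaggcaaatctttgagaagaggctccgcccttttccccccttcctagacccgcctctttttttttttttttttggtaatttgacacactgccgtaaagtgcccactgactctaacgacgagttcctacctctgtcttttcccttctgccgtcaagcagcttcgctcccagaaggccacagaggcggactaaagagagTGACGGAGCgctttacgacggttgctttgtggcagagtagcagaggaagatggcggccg
The motifs were the interferon-stimulated response element (ISRE, GAAA, any 2 bases, GAAA), the interferon-gamma activated site (GAS, TTCNNNGAA) and the antioxidant response element (TGACNNNGC), and none of the printed matches overlapped another motif. The ISRE letters were in 3.44% of all 32851 promoters, the GAS letters in 8.30% and the antioxidant letters in 12.4%. Psme1 held an ISRE just after its start and Psmb8 a GAS before its start, whereas the windows of Psmb10 and Psme2 held none of the 3. Among the other members the ISRE letters were in Psmb3, Psmd4 and Psmd9, and the GAS letters in Psmd2. The antioxidant letters were in Psmb5, Psmb6, Psmc6, Psmd9, Psmd12 and Psme4. A match describes these letters only.

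All 4 inducible members were about 3 to 5 times higher after 24 h of LPS than in Control of the same time, in both genotypes. Psmb8 (ENSMUSG00000024338), the inducible counterpart of Psmb5, read 108, 111 and 104 CPM in the WT Control 24 h libraries and 445, 485 and 494 CPM after LPS. In the libraries labelled KO it read 108, 109 and 109 CPM in Control and 473, 491 and 484 CPM after LPS. No LPS library came near a Control library, and Psmb8 rose on the log2 scale by 2.14 in WT (SE 0.08, adjusted p = 1.06e-28) and by 2.15 in KO (SE 0.08, adjusted p = 6.21e-29). The gene lies in the MHC region (GRCm38, chr17:34197721-34201454, plus strand), 495 bases from Tap1 on the same strand, and an exon of Gm20496 overlaps it on the opposite strand.

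Psmb10 (ENSMUSG00000031897), the inducible counterpart of Psmb7, stood at a lower level in CPM and also rose. WT Control 24 h libraries held 20.2, 24.7 and 19.96 CPM, against 98.9, 106 and 105 CPM after LPS. The KO libraries held 23.6, 22.96 and 18.4 CPM in Control and 89.9, 106 and 103 CPM after LPS. The groups were far apart, and the rise on the log2 scale was 2.25 in WT (SE 0.13, adjusted p = 3.68e-20) and 2.22 in KO (SE 0.13, adjusted p = 6.42e-20). The gene lies at chr8:105935735-105938444 on the minus strand.

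The PA28 activator genes rose as well. Psme1 (ENSMUSG00000022216) had 138, 126 and 149 CPM in WT Control 24 h and 460, 489 and 463 CPM after LPS. Its KO libraries had 150, 153 and 152 CPM, then 468, 481 and 467 CPM. On the log2 scale Psme1 rose by 1.77 in WT (SE 0.08, adjusted p = 3.95e-25) and by 1.64 in KO (SE 0.08, adjusted p = 5.3e-24), the smallest values among the 4 inducible members. Psme2 (ENSMUSG00000079197), which lies 5911 bases from Psme1 on chromosome 14 (chr14:55578123-55581529, plus strand, for Psme1 and chr14:55587441-55591113, minus strand, for Psme2), went from 58.1, 57.4 and 61.0 CPM to 242, 261 and 258 CPM in WT. In KO it went from 48.2, 51.8 and 54.2 CPM to 237, 233 and 268 CPM. No library of Psme1 or Psme2 overlapped between Control and LPS, and Psme2 changed by 2.10 (SE 0.10, adjusted p = 1.86e-24) and 2.25 (SE 0.10, adjusted p = 1.73e-25) on the log2 scale.

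**Figure D1:**
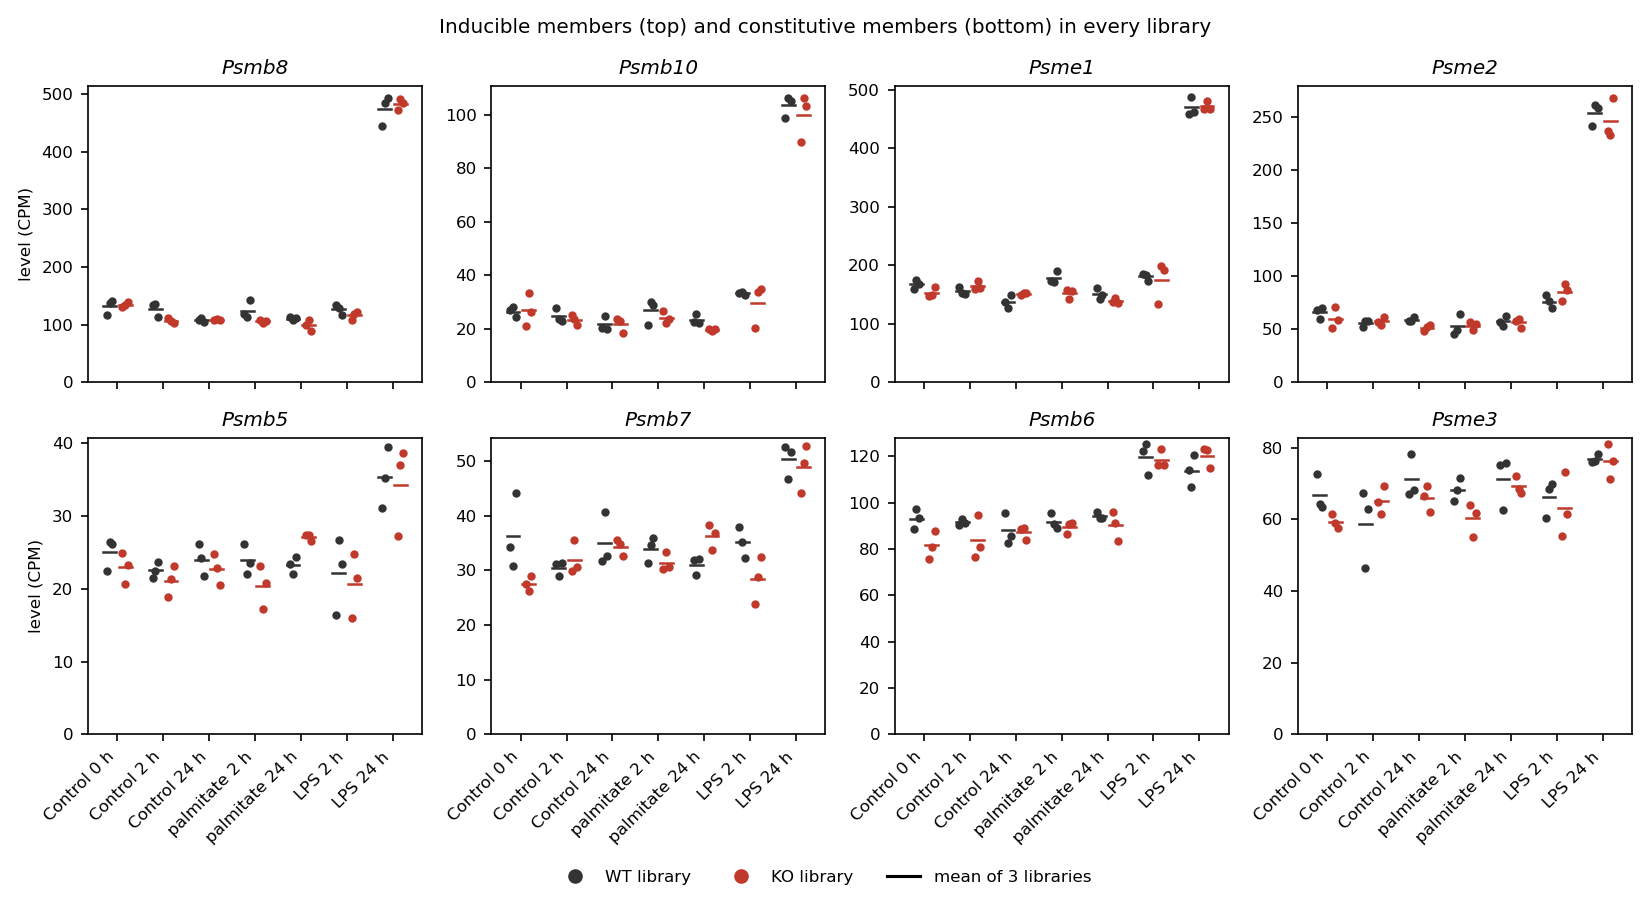
Level in CPM (y axis, from 0, scale differs between panels) of the 4 inducible members (top) and of Psmb5, Psmb7, Psmb6 and Psme3 (bottom) in each of the 7 conditions; points are libraries (WT grey, KO red) and bars the mean of 3. Psmb8 stood at 445 to 494 CPM in the 6 LPS 24 h libraries, above every other library, while the constitutive members moved less.

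The other activator genes, Psme3 and Psme4, moved little. Psme3, the nuclear member of the PA28 family, averaged 71.2 ± 6.07 CPM in WT Control 24 h and 76.9 ± 1.25 CPM after LPS (SD, n = 3). Its log2 difference was 0.11 (SE 0.10, adjusted p = 0.409) in WT and 0.21 (SE 0.10, adjusted p = 0.0749) in KO. Psme4, which encodes the activator PA200, rose by 0.19 (SE 0.07, adjusted p = 0.0324) in WT and 0.25 (SE 0.07, adjusted p = 0.00525) in KO. The WT call of Psme4 was lost without any of 4 WT libraries, namely libraries 1 and 2 of Control 24 h and 1 and 3 of LPS 24 h.

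Psme2b is a retrocopy: its 837-base transcript is 96.2% identical to Psme2 and 56.2% to Psme1. It had 12.4, 11.1 and 14.4 CPM in WT Control 24 h and 36.3, 29.8 and 39.3 CPM after LPS. It rose by 1.47 (log2, SE 0.19) in WT and 1.74 (SE 0.19) in KO. Its values are uncertain, since reads of Psme2 may be assigned to it and its exon overlaps 9930111J21Rik1 on the same strand.

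Within the catalytic positions the balance moved towards the inducible member. Levels per kilobase (kb) of exon were used, since the genes differ in length. The ratio of Psmb8 to Psmb5 was 1.10 to 1.41 in the 6 Control 24 h libraries and 3.32 to 4.61 in the 6 LPS 24 h libraries, without overlap. Psmb8 thereby made up 52.5% to 58.4% of the summed level of the pair in Control and 76.9% to 82.2% after LPS. The ratio was 2.98 times higher, and a 2-sided exact permutation test within genotype over 400 arrangements gave p = 0.005, the smallest it allows, and 0.02 after adjustment over 8 ratio tests. The ratio of Psmb10 to Psmb7 went from 1.13 to 1.33 in Control up to 3.78 to 4.57 after LPS, 3.29 times higher, with the same p (exact permutation p = 0.005, adjusted 0.02). Psmb10 made up 53.1% to 57.1% of that pair in Control and 79.1% to 82.1% after LPS.

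At 2 h neither ratio passed the threshold. Psmb8 to Psmb5 differed by 0.11 on the log2 scale (exact permutation p = 0.51, adjusted 0.816). Psmb10 to Psmb7 differed by 0.35 (exact permutation p = 0.02, adjusted 0.0533). Per kb of the longest transcript in place of all exons, the Psmb8 share of its pair was 66.2% to 71.4% in Control 24 h and 85.5% to 89.1% after LPS, with the same fold. RNA ratios do not give the make-up of assembled particles.

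**Figure D2:**
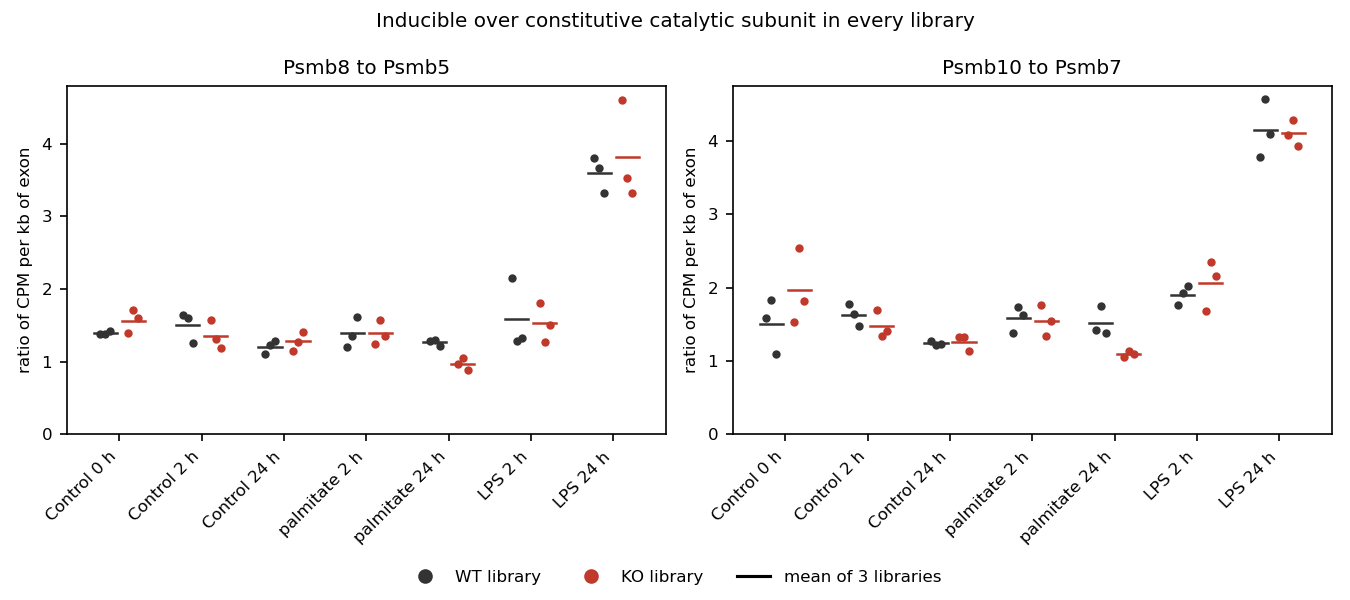
Ratio of CPM per kb of exon (y axis, from 0) of Psmb8 to Psmb5 (left) and of Psmb10 to Psmb7 (right) in each of the 7 conditions; points are libraries (WT grey, KO red) and bars the mean of 3. The LPS 24 h libraries lay at 3.32 to 4.61 (left) and 3.78 to 4.57 (right), apart from all others.

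Across all members, 24 h of LPS raised 30 of the 43 tested in WT and lowered 1, where 19.6% of the 11624 genes tested rose and 19.9% fell. In KO it raised 31 and lowered 0 of 43, against 19.9% higher and 21% lower among all genes. The members' median log2 fold change was 0.38 in WT and 0.39 in KO, beside -0.01 for all genes in each. Libraries of the groups did not overlap, in the higher direction, for 33 of 43 members in either genotype, where 24.3% (WT) and 24.7% (KO) of all genes did so. The calls of 28 members were shared, which is 93.3% of those in WT and 90.3% of those in KO. Psma1 and Psmb1 were called in WT, and Psmd11, Psmd12 and Psmd13 in KO, and for none of these did the genotype term pass the threshold.

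The summed level of the macrophage markers moved with LPS too, from 4918 to 5078 CPM in the 6 Control 24 h libraries to 7682 to 8747 CPM, with 4 of the 6 markers higher and 2 lower in each genotype. Fcgr1, itself an interferon-inducible receptor, had log2 fold changes of 3.46 in WT and 3.56 in KO. The summed granulocyte precursor markers were lower after LPS without overlap, at 6.78 to 15.6 CPM against 27.1 to 38.2 CPM in WT and at 20.7 to 38.4 CPM against 72.8 to 118 CPM in KO, and Elane was at 0 in the WT libraries of both. The fibroblast markers gave 0 to 2.15 CPM after LPS against 2.74 to 28.99 CPM in WT, and 0 to 122 CPM against 29.02 to 93.6 CPM in KO. The part of these cells in the members' changes was not tested.

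The constitutive core had smaller fold changes than the inducible members. Of its 15 tested members, 14 rose in WT and 12 in KO, where 19.6% (WT) and 19.9% (KO) of all genes rose. The alpha ring had medians of 0.58 and 0.55 (log2). Psma6, an alpha subunit, rose most: 49.7, 55.9 and 64.8 CPM in WT Control became 106, 118 and 128 CPM after LPS, a rise of 1.03 in WT (log2, SE 0.10, adjusted p = 5.06e-12) beside 0.86 in KO (SE 0.10, adjusted p = 8.8e-10). Psma7 followed with 0.83 (SE 0.08) in WT and 0.74 (SE 0.09) in KO. Psma2, Psma3, Psma4 and Psma5 rose by 0.39 to 0.71 over both genotypes, and Psma1 rose in WT (0.37) and differed by 0.18 in KO, which was not called. Psma8, the alpha subunit of the testis, stayed at 0.19 to 3.08 CPM in all libraries and was not called.

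The constitutive catalytic members rose alongside the subunits that take their places. Psmb5 had 26.1, 24.2 and 21.7 CPM in WT Control and 31.1, 35.2 and 39.5 CPM after LPS (log2 0.57, SE 0.14, adjusted p = 0.000813), and its KO change was 0.60 (SE 0.14, adjusted p = 0.000414). Psmb7 had 31.7, 40.6 and 32.6 CPM in WT Control and 52.5, 46.7 and 51.6 CPM after LPS (log2 0.51, SE 0.11, adjusted p = 0.000166). Psmb6 rose by 0.38 (SE 0.07) in WT and 0.47 (SE 0.07) in KO. The structural beta subunits Psmb2, Psmb3 and Psmb4 rose in both genotypes, by 0.38 to 0.74. Psmb1 rose in WT (0.38) and had a difference of 0.23 in KO that was not called. Mir686 lies within an exon of Psmb5 on the same strand, and Nek6 overlaps Psmb7 on the opposite strand.

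In the 19S cap all 6 ATPases rose in both genotypes, with medians of 0.38 in WT and 0.36 in KO, and the WT call of Psmc6 was lost without library 1 of Control 24 h. Psmc5 had the highest value, from 42.95, 47.7 and 50.7 CPM in WT Control to 76.2, 78.8 and 85.0 CPM after LPS (log2 0.75, SE 0.10, adjusted p = 9.98e-09), and 0.77 (SE 0.10) in KO. Of the 11 non-ATPase subunits, 3 rose and 1 fell in WT and 6 rose in KO, with medians of 0.13 and 0.22, beside the 19.6% higher and 19.9% lower of all genes in WT and 19.9% and 21% in KO. Psmd4, a ubiquitin receptor, rose from 128, 137 and 139 CPM to 185, 193 and 190 CPM in WT (log2 0.49, SE 0.08), and by 0.48 (SE 0.08) in KO. Psmd3 rose by 0.36 in WT and 0.50 in KO, and Psmd7 by 0.20 and 0.24, a call that was lost in WT without library 1 or 3 of Control 24 h or library 1 or 2 of LPS 24 h. Psmd11, Psmd12 and Psmd13 rose in KO, by 0.22, 0.27 and 0.37, and had differences of -0.04, 0.05 and 0.21 in WT that were not called. The KO call of Psmd11 was lost with DESeq2 and with RLE size factors, and those of Psmd11 and Psmd12 without library 1 or 3 of KO Control 24 h or of KO LPS 24 h.

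Psmd1, the large scaffold subunit of the base, went the other way in WT. Its WT Control libraries read 220, 218 and 224 CPM and its LPS libraries 197, 198 and 195 CPM, without overlap (log2 -0.17, SE 0.06, adjusted p = 0.0188). In KO the difference was -0.13 (SE 0.06, adjusted p = 0.0727). The WT call was lost without library 3 of Control 24 h or without library 1 or 3 of LPS 24 h. Htr2b overlaps an exon of Psmd1 on the opposite strand. Psmd14, which removes ubiquitin from the substrate, had differences of 0.13 and 0.14 that were not called, and Psmd2, Psmd6 and Psmd8 lay between -0.03 and 0.13.

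Psmd10, a chaperone of 19S assembly also known as gankyrin, had the highest fold change outside the inducible members and Psme2b. It had 8.42, 17.8 and 17.05 CPM in WT Control 24 h and 44.2, 44.7 and 43.8 CPM after LPS (log2 1.55, SE 0.16, adjusted p = 2.11e-11). In KO it had 11.2, 18.95 and 18.8 CPM, then 48.3, 48.4 and 48.2 CPM (log2 1.53, SE 0.16, adjusted p = 1.67e-11). The LPS libraries were close to each other and far above Control, where library 1 was lowest in both genotypes. The other 2 chaperones, Psmd5 and Psmd9, had differences of -0.22 and 0.35 in WT that were not called. Psmc3ip, which the symbol rule took in, encodes a factor of meiotic recombination and no subunit, and stood at 1.24 to 5.50 CPM in all libraries without a call. Exons of Psma4, Psma5, Psmc3, Psmd3, Psmd13 and Psme1 also overlap another gene on the opposite strand.

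**Figure D3:**
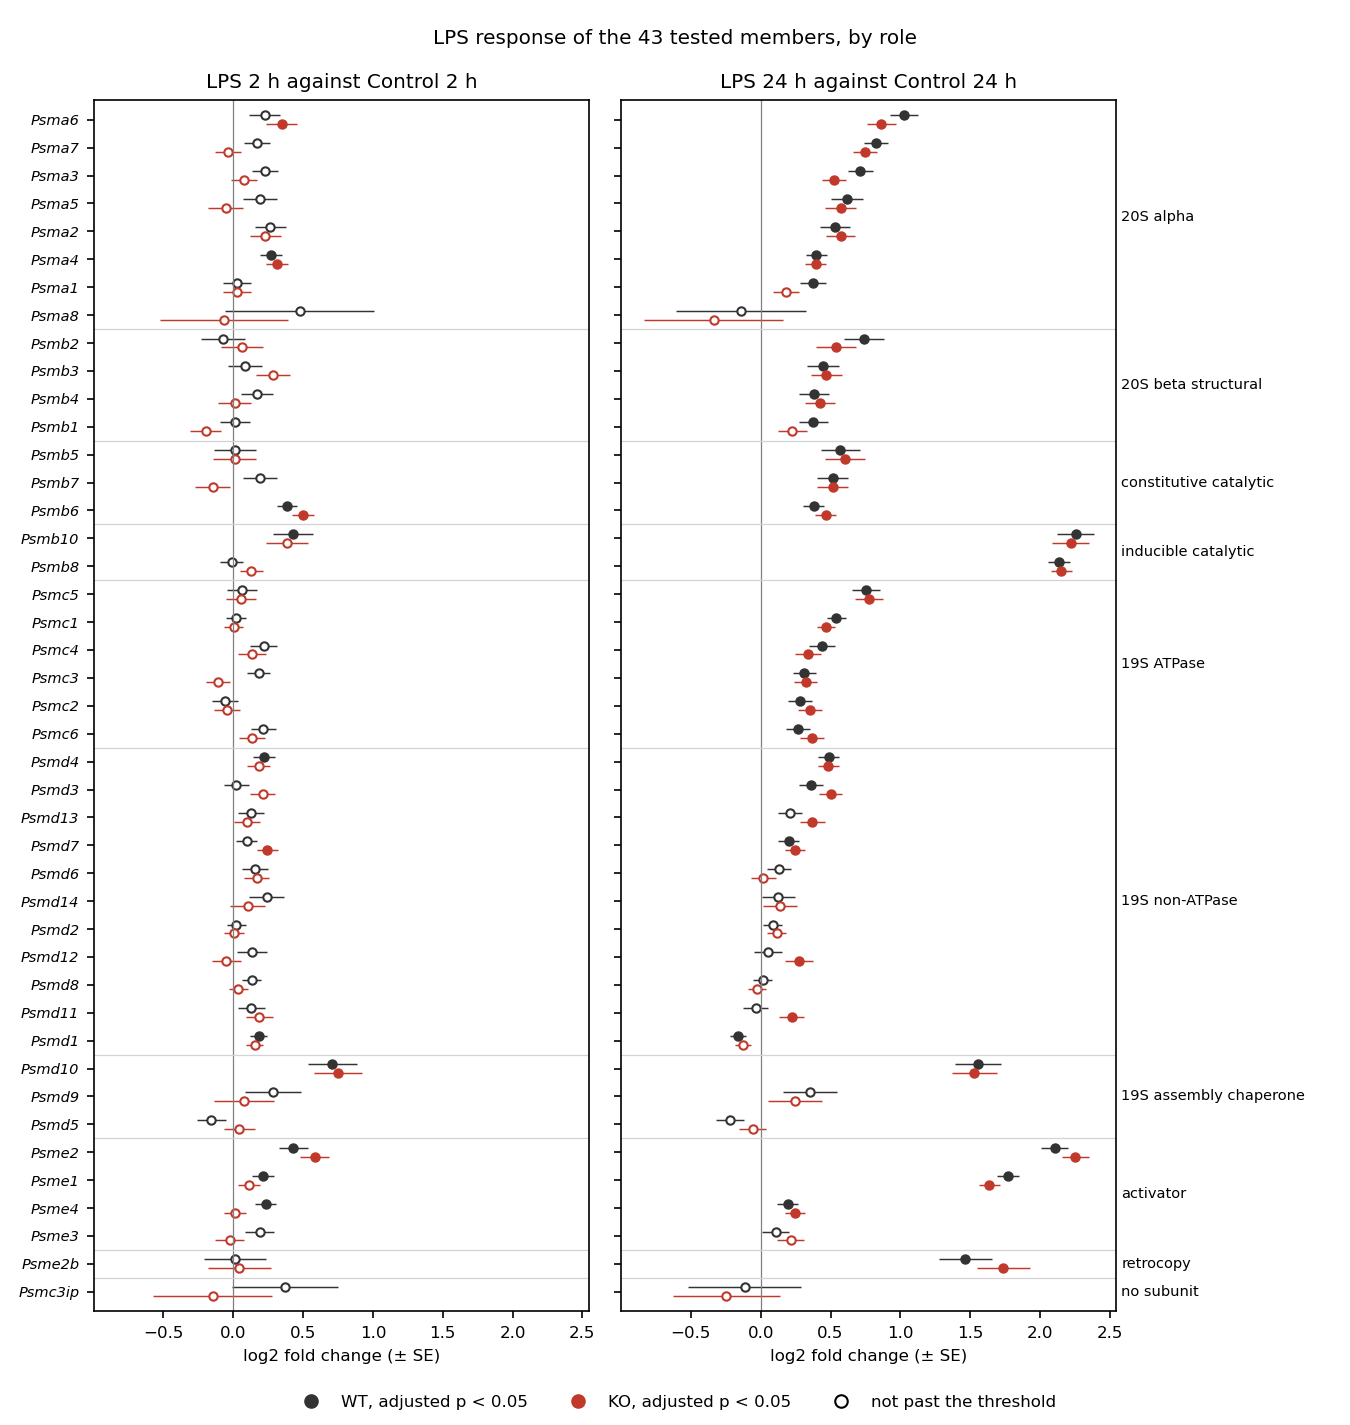
Log2 fold change (x axis, with the standard error) of the 43 tested members after 2 h (left) and 24 h (right) of LPS against Control of the same time, grouped by role (right margin); grey points are WT, red points KO, and open points did not pass an adjusted p of 0.05. At 24 h the inducible members lay between 1.64 and 2.25, the 19S ATPases between 0.27 and 0.77 and most non-ATPase subunits closer to 0.

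After 2 h of LPS fewer members were called than after 24 h. In WT 9 of 43 rose and 0 fell, where 14% of all genes rose and 9.10% fell, and in KO 6 rose and 0 fell, where 14.7% rose and 9.16% fell. The members' medians were 0.18 in WT and 0.07 in KO. Psma4, Psmb6, Psmd10 and Psme2 were called in both genotypes, which is 44.4% of the WT calls and 66.7% of the KO calls. Called in WT were also Psmb10, Psme1, Psmd1 (0.18), Psmd4 (0.22) and Psme4 (0.23), and in KO Psma6 (0.35) and Psmd7 (0.24), and for none of these did the genotype term pass the threshold. Of the 15 calls at 2 h, 8 were lost under at least 1 alternative setting, against 6 of the 62 calls at 24 h.

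Psmd10 rose at 2 h by 0.71 (SE 0.17, adjusted p = 0.00137) in WT and 0.75 (SE 0.17, adjusted p = 0.000586) in KO. Its WT libraries held 13.7, 16.7 and 16.3 CPM in Control 2 h and 25.8, 25.3 and 25.8 CPM after LPS. Psmb6 had about the same fold at 2 h as at 24 h. WT libraries held 90.4, 93.1 and 91.4 CPM in Control and 122, 125 and 112 CPM after LPS (log2 0.38, SE 0.07, adjusted p = 5.92e-05), and KO rose by 0.50 (SE 0.08, adjusted p = 5.08e-07).

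Among the inducible members, Psme2 rose at 2 h by 0.43 (SE 0.10, adjusted p = 0.00138) in WT and 0.58 (SE 0.10, adjusted p = 1.29e-05) in KO. Psmb10 rose in WT by 0.43 (SE 0.14, adjusted p = 0.024), from 27.7, 23.7 and 22.97 CPM to 33.3, 33.7 and 32.7 CPM. In KO it differed by 0.38 (SE 0.15, adjusted p = 0.052), with the shallowest library at 20.1 CPM and the others at 33.6 and 34.8 CPM. Psme1 rose in WT by 0.21 (SE 0.08, adjusted p = 0.0453), a call that was lost without any of the 6 libraries compared. The WT call of Psmb10 was lost without any of 5 of them. Psmb8 stood at 133, 129 and 116 CPM in WT after 2 h of LPS, within the range of its Control libraries (133, 135 and 112 CPM), with a difference of -0.01 (SE 0.08, adjusted p = 0.938), and of 0.13 (SE 0.08, adjusted p = 0.282) in KO.

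The LPS effect at 24 h was larger than that at 2 h for 24 of 43 members and smaller for 1, over both genotypes, where 21.7% and 24.5% of all genes did so. Psmb8 gained most between the times, 2.09 on the log2 scale (SE 0.08, adjusted p = 1.07e-27), ahead of Psmb10 (1.83, SE 0.14), Psme2 (1.67, SE 0.10) and Psme1 (1.54, SE 0.08). Psmd1 was the member with a smaller effect at 24 h, a difference of -0.31 (SE 0.06, adjusted p = 1.29e-05). Its own differences from Control were called in WT alone at either time, and its WT call at 2 h was lost without library 1 of LPS 2 h or library 1 or 3 of Control 2 h. The call of Psmb3 between the times was lost with DESeq2, with RLE size factors and without any of 12 libraries.

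Genes that act with the proteasome were read in the same libraries. The 12 genes of class I peptide loading rose with the inducible members: 12 rose after 24 h of LPS in WT and 11 in KO, beside 19.6% and 19.9% of all genes. Tap1, a peptide transporter, went from 33.1, 27.8 and 26.2 CPM to 243, 216 and 253 CPM in WT (log2 3.05, SE 0.12, adjusted p = 1.5e-26), and by 3.11 (SE 0.12) in KO. Tapbp, which holds class I molecules at the transporter, rose by 2.17 and 2.22, the class I heavy chain gene H2-K1 by 2.04 and 2.07, and B2m, its light chain, by 1.58 in either genotype. Nlrc5, an activator of class I genes, rose by 1.68 and 1.78. At 2 h, Tap1, Tapbp and H2-K1 rose in both genotypes and Nlrc5 also in KO, by at most 0.63.

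Genes of interferon signalling were read at both times. Irf1, a transcription factor induced by interferon, was at 49.6, 53.9 and 49.2 CPM in WT Control 2 h and 531, 496 and 494 CPM after 2 h of LPS (log2 3.31, SE 0.09, adjusted p = 4.45e-33), and was 1.36 (SE 0.11) higher at 24 h. Ifnb1, which encodes interferon beta, had 19.3, 31.9 and 27.7 CPM in WT and 12.1, 20.5 and 19.5 CPM in KO after 2 h of LPS, and at most 0.537 CPM in every other library. Irf7, a transcription factor of the interferon response, averaged 21.6 ± 4.58 CPM in WT Control 24 h and 1606 ± 51.6 CPM after LPS (SD, n = 3). Psmb8 stood near Control at 2 h, when Irf1 and Ifnb1 were high. At that time Psme2 was called higher in both genotypes, and Psmb10 and Psme1 in WT by calls that were lost without single libraries. All 4 inducible members were high at 24 h, when Irf7 was high and Irf1 was 1.36 (log2) above Control in WT.

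**Figure D4:**
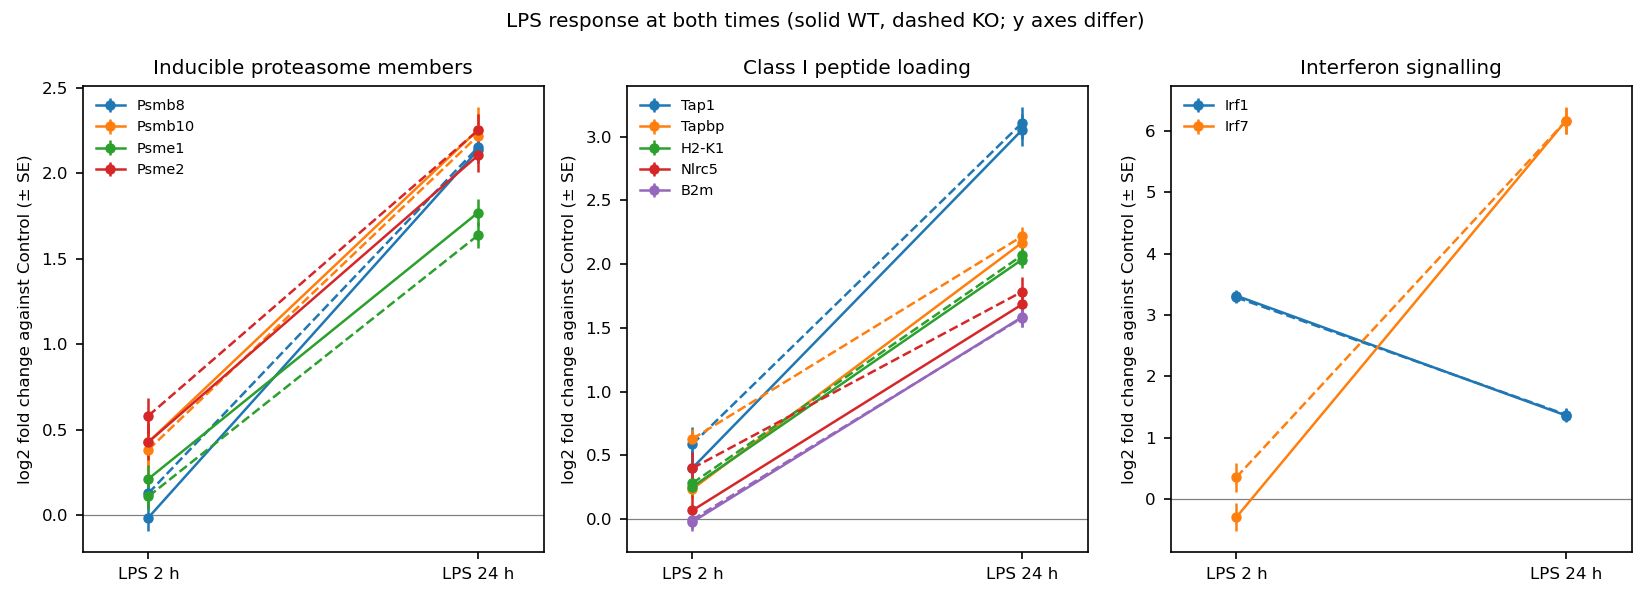
Log2 fold change against Control of the same time (y axis, with the standard error; scale differs between panels) after 2 and 24 h of LPS for the inducible members, 5 genes of class I peptide loading and 2 of interferon signalling; solid lines are WT and dashed lines KO. Irf1 was highest at 2 h (3.31 in WT), and all other genes shown were highest at 24 h.

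Of the 6 genes for 20S assembly and inhibition, 3 rose at 24 h in both genotypes, beside 19.6% (WT) and 19.9% (KO) of all genes. Pomp, the maturation factor of the core, rose by 0.62 (SE 0.08) and 0.65 (SE 0.08). Psmg3 rose by 0.69 and 0.73, and Psmf1, which encodes an inhibitor of the core, by 0.60 and 0.42. Of the 4 genes of transcriptional control, Nfe2l1, which encodes a factor that drives proteasome genes, rose by 0.42 and 0.47 at 2 h and by 0.65 and 0.69 at 24 h. Ddi2, the protease that activates that factor, was lower by 0.85 (log2 -0.85) in WT and by 0.92 (log2 -0.92) in KO at 2 h, and its differences at 24 h were -0.52 and -0.42. Nfe2l2, an oxidative stress factor, rose by 1.23 and 1.22 at 2 h, and its differences of -0.10 and -0.13 at 24 h were not called.

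Among the ubiquitin genes, the polyubiquitin gene Ubb rose at 24 h by 0.87 in WT and 0.79 in KO, and Uba1, which encodes a ubiquitin-activating enzyme, by 0.58 and 0.55. Among the associated and shuttle factors, Ubqln2, which encodes a shuttle for ubiquitinated proteins, fell (log2 -0.40 and -0.22). Adrm1, a ubiquitin receptor of the cap, rose in KO by 0.39.

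After palmitate none of the 43 members passed an adjusted p of 0.05 by edgeR, in either genotype or at either time, and DESeq2 gave 0 as well. At an unadjusted p under 0.05 there were 3 members at 2 h and 2 at 24 h in WT, and 1 at 2 h and 2 at 24 h in KO. Of all 11624 genes tested, 866 at 2 h and 1049 at 24 h had such a p in WT, and 536 and 927 in KO. At the adjusted threshold the background was low: 0.275% of all genes were called in WT at 2 h, 0.112% in KO at 2 h, 0.852% in WT at 24 h and 0.877% in KO at 24 h. Leaving out the scarce Psma8 and Psmc3ip, the differences of 41 members lay between -0.43 and 0.27 (log2) over all 4 comparisons. Psmb8 read 113, 107 and 111 CPM in WT after 24 h of palmitate and 99.9, 108 and 88.7 CPM in KO, with differences of 0.03 (SE 0.08) and -0.14 (SE 0.08) from Control. Psme1 differed by 0.19 (SE 0.08, adjusted p = 0.517) in WT at 2 h.

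The members were compared between the genotypes in each condition. In Control 0 h Psmb7 and Psmd8, a lid subunit, were lower in KO, 2 of 43 members where 6.06% of all genes were lower. Psmb7 had 34.2, 30.8 and 44.1 CPM in WT and 27.5, 26.2 and 28.97 CPM in KO (log2 -0.41, SE 0.12, adjusted p = 0.0153), without overlap. Psmd8 averaged 179 CPM in WT and 152 CPM in KO (log2 -0.24, SE 0.07, adjusted p = 0.0121). Neither was called without library 1 of KO or without library 3 of WT. The call of Psmb7 was also lost without library 2 of KO and when only the groups compared were fitted.

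No member was called in the other 6 conditions by edgeR or DESeq2, where 1 to 4 had an unadjusted p under 0.05. Such a p was found for 587 (Control 24 h) to 1342 (LPS 2 h) of all 11624 genes tested in these conditions. Of all genes, the share called at the adjusted threshold was 0.490% in Control 2 h, 0.146% in palmitate 2 h, 0.465% in LPS 2 h, 0.120% in Control 24 h, 0.0688% in palmitate 24 h and 0.146% in LPS 24 h. Over the mean of the 7 conditions, Psmb8 was lower in KO by 0.10 (log2 -0.10, SE 0.03, adjusted p = 0.0195), 1 of 43 members where 5.33% of all genes were lower. The KO libraries also held more of the fibroblast markers in Control 0 h, 26.2 to 46.6 CPM against 0.362 to 0.631 CPM, and more of the granulocyte precursor markers, 44.1 to 50.2 CPM against 26.7 to 32.9 CPM. In Control 24 h the fibroblast markers gave 29.02 to 93.6 CPM against 2.74 to 28.99 CPM and the granulocyte precursor markers 72.8 to 118 CPM against 27.1 to 38.2 CPM. Their part in the differences of Psmb7, Psmd8 and Psmb8 was not tested.

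The response to LPS was not found to depend on genotype. No member passed the threshold for a genotype term of LPS or palmitate at 2 or 24 h by edgeR or DESeq2. At an unadjusted p under 0.05 there were 2, 1, 3 and 2 members for LPS 2 h, LPS 24 h, palmitate 2 h and palmitate 24 h. In the same order, 810, 628, 486 and 411 of all 11624 genes tested had such a p. At the adjusted threshold 0 of all genes were called except for LPS 24 h, at 0.00860%. For Psmb8 the LPS effect at 24 h differed by 0.02 between KO and WT (log2, 95% interval -0.20 to 0.23), and for Psmb10 by -0.03 (-0.42 to 0.36). For Psme1 the difference was -0.13 (-0.35 to 0.09) and for Psme2 0.15 (-0.13 to 0.43), so these data leave room for differences of up to that size. Under palmitate the genotype term of Psme1 was -0.31 (-0.53 to -0.08) at 2 h and -0.26 (-0.49 to -0.02) at 24 h. Neither was called, and the intervals are not adjusted for the number of genes. The palmitate intervals of Psmb8, Psmb10 and Psme2 included 0 at both times.

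In culture without stimulus 1 of 43 members was called lower at 2 h and 3 of 43 at 24 h, shares no larger than those of all genes. Over both genotypes, Psmb8 was lower at 2 h than at 0 h (log2 -0.20, SE 0.06, adjusted p = 0.00846), the 1 member called lower where 7.36% of all genes were. It was lower at 24 h as well (log2 -0.30, SE 0.06), as was Psmb10 (log2 -0.31, SE 0.10, adjusted p = 0.0329) and Psmd8 (log2 -0.28, SE 0.05). The 6 members that rose by 24 h were Psma1, Psmb3, Psmd1, Psmd2, Psmd7 and Psmd11, by 0.13 to 0.25, and these calls stood beside 7.90% higher and 8.62% lower of all genes. The call of Psmb10 was lost without any of 7 libraries, that of Psmd2 without any of 6, that of Psmb3 without any of 5 and that of Psmd1 without library 3 of WT Control 0 h.

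Over the 14 groups, the highest mean of each inducible member was 3.43 to 5.26 times its lowest, and 1.31 to 1.69 times with the LPS 24 h groups left out. For the 39 other tested members it was 1.18 to 4.10 times, with a median of 1.49 and the highest values in Psme2b and Psmd10 (3.35), and the highest mean fell in an LPS 24 h group for 34 of them. The constitutive members held an order of levels that the stimulus kept in part. In Control 24 h, Psmc1 stood highest of the ATPases at 71.9 CPM per kb of exon and Psmc2 lowest at 14.7, and after LPS they were again the ends of that class at 102 and 18.3. In the alpha ring Psma6 stood highest per kb of exon, at 45.8 CPM, and at 89.0 after LPS. Its place above Psma4 depends on the length used. All exons and the longest transcript span 1234 and 1042 bases in Psma6, and 2370 and 1165 bases in Psma4. Of the constitutive catalytic members Psmb6 had 46.8 CPM per kb and Psmb7 10.1 in Control 24 h, beside 32.02 for Psmb8 and 12.7 for Psmb10. After LPS, Psmb8 reached 142 CPM per kb, above the 62.5 of Psmb6. Psme1 had 213 CPM per kb of exon, the highest among the activators by that length. Its place above Psme2 also depends on the length used. All exons and the longest transcript span 2209 and 1986 bases in Psme1, and 1764 and 962 bases in Psme2.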

How the data were processed

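RNA of BMDM cultures was sequenced as stranded, ribodepleted total RNA with paired ends. The authors aligned reads to mm10 with STAR (2.7.3a) and deposited raw counts per Ensembl gene for 42 libraries. Their processing notes also name fastp (0.19.11) and mm9. The annotation release and the strand setting are not given in the sources used here, so antisense overlaps are named beside members. Counts were tested with edgeR (4.0.16, R 4.3.3): filterByExpr, TMM, a quasi-likelihood fit with a mean for each of the 14 groups, and Benjamini-Hochberg adjustment over 11624 genes at 0.05. CPM use TMM sizes and 3 counts equal 0.397 to 1.14 CPM, for counting error only. SE is the log2 fold change over the square root of F. Inducible to constitutive ratios were tested by exact permutation, and since Psmb9 was not analysed, 8 ratios were tested in place of 12. Column headers carry a group and no replicate number, so library numbers follow column order. Replicate pairs differed beyond counting noise (chi-square per degree of freedom 1.93 to 9.32 over 42 pairs). Alternatives were DESeq2 (1.42.0), RLE size factors, no filter, only the groups compared and each library left out. The script was tested on simulated counts. Named genes were all members, described by role, with genes of the pathway lists, some of which are not reported here. Members and lists were chosen with earlier results of these data known.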

Additional observations from a re-analysis of the deposited data

Results flagged for a closer look

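The effect of LPS against Control differed between 24 h and 2 h, by a test of the difference itself over both genotypes, for 25 members. On the log2 scale the 24 h effect exceeded the 2 h effect for Psmb8 (2.09), Psmb10 (1.83), Psme2 (1.67), Psme2b (1.57), Psme1 (1.54) and the chaperone gene Psmd10 (0.81). The other subunits with a larger effect at 24 h were Psma7 (0.72), Psmc5 (0.70), Psma6 (0.66), Psmb2 (0.64), Psmb5 (0.58), Psma5 (0.53), Psmc1 (0.50), Psmb7 (0.49), Psma3 (0.47), Psmb1 (0.39), Psmc2 (0.37), Psmd3 (0.32), Psmb4 (0.31), Psma2 (0.30), Psmd4 (0.29), Psmc3 (0.28), Psmb3 (0.28) and Psma1 (0.25). Psmd1 differed the other way (-0.31). The call of Psmb3 was lost in 15 of the alternative settings, that of Psma1 in 4 and that of Psma2 in 2.

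After 24 h of palmitate the ratio of Psmb10 to Psmb7 lay on opposite sides of Control in the 2 genotypes, a difference that did not pass its test. In WT it was 1.39 to 1.75 against 1.22 to 1.28 in Control, all libraries higher, and in the libraries labelled KO 1.05 to 1.13 against a Control range that began just above, up to 1.33, all libraries lower. The log2 change was 0.29 in WT and -0.21 in KO, a difference of -0.49. A test chosen after the data were seen, which permuted the genotype labels within palmitate and within Control, gave exact permutation p = 0.04 and 0.16 adjusted over 8 such comparisons. Over both genotypes the ratio differed by 0.04 from Control, with overlap (exact permutation p = 0.72, adjusted 0.869). The ratio of Psmb8 to Psmb5 at the same time gave a difference of -0.47 (exact permutation p = 0.025, adjusted 0.16).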

How the results depend on the processing

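Of the 115 calls of members over all comparisons, 2 lost significance with DESeq2, 2 with RLE size factors, 16 with all genes that had a count and 5 with only the groups compared, and with 1 library left out calls were lost 90 times and held 1146 times; none changed sign. The counts of members called changed in some settings. With all genes that had a count, LPS 2 h in WT gave 5 in place of 9, as it did without library 1 of WT LPS 2 h or library 2 of WT Control 2 h, and 4 without library 3 of WT Control 2 h. For Control 24 h against 0 h, all genes with a count gave 6 and only the groups compared 13, in place of 9. With each library left out in turn, LPS 2 h gave 4 to 8 in WT and 4 to 8 in KO, LPS 24 h 28 to 32 and 29 to 31, the difference of the LPS effect between times 22 to 26, Control 24 h against 0 h 6 to 11 and Control 2 h against 0 h 0 to 2. The latter was 0 without library 3 of WT Control 2 h and 2 without library 2 of WT Control 2 h or library 3 of WT Control 0 h. KO against WT gave 0 to 2 in Control 0 h (0 without library 1 of KO or library 3 of WT, 1 without library 2 of KO), 0 to 1 in Control 2 h (1 without library 3 of WT) and 0 to 1 in LPS 2 h (1 without library 1 of KO). The log2 difference from Control in the ratio of Psmb8 to Psmb5 ranged from -0.014 to 0.17 at LPS 2 h. At palmitate 2 h this difference ranged from -0.10 to 0.017. For the ratio of Psmb10 to Psmb7 the log2 difference ranged from 0.30 to 0.42 at LPS 2 h. It ranged from -0.037 to 0.061 at palmitate 2 h and from -0.013 to 0.072 at palmitate 24 h. At LPS 2 h it passed the threshold without library 1 of WT Control 2 h (0.38) or library 1 of KO LPS 2 h (0.42). At LPS 24 h the log2 differences stayed at 1.5 to 1.62 for Psmb8 to Psmb5 and at 1.68 to 1.75 for Psmb10 to Psmb7. The cause of these changes was not tested. The planned ratio of Psmb9 to Psmb6 was not run. No paired analysis was possible because the column headers carry no replicate number. Depth limits members near 3 counts, such as Psma8.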
